A study of Mus musculus with 12 samples.

Results

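The genes described here are 42 genes of DNA replication and mitosis, the S and G2/M programme of the cell cycle. They were chosen by gene name as a list, with earlier results of these data known. Of these, 41 had a row in the deposited expression table of 43686 rows, and all 41 passed the filter on low counts that kept 17155 rows for testing. Tyms was not analysed here. The genes fall into 16 measured replication genes, which bring cells into S phase, load and activate the DNA helicase and supply the clamp and the nucleotides, and 25 mitosis genes, which drive mitotic entry, build kinetochores and spindles, and complete division.

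Ventricular wall RNA of mice on a C57BL/6J background was sequenced from 6 control hearts (WT, Sdhaf4fl/fl, floxed alleles and no Cre) and 6 hearts of littermates that also carried Ckmm-Cre (KO, labelled Sdhaf4-/-). Both groups carried floxed Sdhaf4, which encodes an assembly factor of respiratory complex II. By the labels the mice were aged 2 months, while the study's text gives a younger age. The study's reporting summary names male mice for omics work, at ages of which the older is close to that of the labels. Ckmm-Cre acts in heart and skeletal muscle, so the other cells of the ventricular wall keep the gene, and the WT mice do not control for the Cre itself. Each library is 1 heart, and the comparison asks whether replication and mitosis genes differ between KO and WT hearts, and whether they do so alike.

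Replication begins when ORC, Cdc6 and Cdt1 load the ring of Mcm proteins on origins in G1. Cyclin-dependent and Dbf4-dependent kinases, with Cdc45 and the GINS complex, then turn the loaded ring into a moving helicase, and Pcna holds the polymerases on DNA. E2F factors are transcription factors that induce the genes of S phase, cyclin E among them. Mitosis genes peak later, under cyclin A, cyclin B and Cdk1, and in the adult heart few cells of any type are in cycle, with cardiomyocytes largely withdrawn from it. E2F elements are known for the timing of replication genes in S phase, and the CHR element with CCAAT boxes for that of mitosis genes in G2/M, where the DREAM complex of pocket proteins and E2F4 represses both in resting cells.

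The promoters shown are those of the 2 replication and the 2 mitosis genes with the smallest p among genes that had a promoter sequence and held an element searched, so that the elements can be read in place. Gins1, Mcm4 and Ccne2, which had smaller p than Pcna, had no promoter sequence in the table used here. The windows run from 250 bases before to 30 bases after the start (RefSeq, GRCm38.p6), in the direction of transcription, and capitals mark the elements searched. Cdt1 (chr8:122567765-122568044, plus strand) and Pcna (chr2:132253151-132253430, minus strand) are replication genes, and Cenpf (chr1:189688057-189688336, minus strand) and Cdc20 (chr4:118437314-118437593, minus strand) are mitosis genes.
Cdt1: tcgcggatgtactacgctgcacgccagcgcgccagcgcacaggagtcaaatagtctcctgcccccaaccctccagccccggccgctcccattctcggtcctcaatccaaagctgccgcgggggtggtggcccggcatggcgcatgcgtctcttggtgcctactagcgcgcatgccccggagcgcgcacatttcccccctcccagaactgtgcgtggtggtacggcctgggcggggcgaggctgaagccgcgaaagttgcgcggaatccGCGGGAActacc
Pcna: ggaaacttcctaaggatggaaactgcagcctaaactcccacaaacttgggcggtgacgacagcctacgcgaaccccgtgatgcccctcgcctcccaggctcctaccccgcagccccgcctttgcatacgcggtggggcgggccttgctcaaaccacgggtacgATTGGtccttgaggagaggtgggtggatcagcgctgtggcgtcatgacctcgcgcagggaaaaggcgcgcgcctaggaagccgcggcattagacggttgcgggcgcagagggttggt
Cenpf: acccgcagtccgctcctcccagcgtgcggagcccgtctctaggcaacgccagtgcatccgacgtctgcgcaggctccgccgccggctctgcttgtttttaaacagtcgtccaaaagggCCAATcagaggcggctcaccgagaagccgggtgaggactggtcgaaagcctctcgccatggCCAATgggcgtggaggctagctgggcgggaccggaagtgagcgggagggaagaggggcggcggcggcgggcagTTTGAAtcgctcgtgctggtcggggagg
Cdc20: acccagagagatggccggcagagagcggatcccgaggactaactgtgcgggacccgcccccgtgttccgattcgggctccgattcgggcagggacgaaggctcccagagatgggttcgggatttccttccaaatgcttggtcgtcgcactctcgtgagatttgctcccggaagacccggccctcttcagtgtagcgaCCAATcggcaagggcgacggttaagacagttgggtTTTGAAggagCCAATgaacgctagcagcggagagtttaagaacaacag

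In these windows Cdt1 held 1 E2F core and Pcna 1 CCAAT box, while Cenpf and Cdc20 each held 1 CHR and 2 CCAAT boxes. The E2F search used the 4 cores TTCCCGC and TTCGCGC and TTGCCGC and TTGGCGC, the CHR search TTTGAA and TTCGAA, and the CCAAT search CCAAT, each on both strands and with overlaps between elements allowed. Promoter sequences were matched by symbol for 34 of the 41 measured genes, 13 of replication and 21 of mitosis. A CHR stood in 13 of the 21 mitosis promoters (61.9%) and in 3 of the 13 replication promoters (23.1%), against 20.9% of 27025 genes with a promoter of the same length. An E2F core stood in 3 mitosis promoters (14.3%) and in 8 replication promoters (61.5%), against 10.1% of all. CCAAT boxes stood in 76.2% of the mitosis promoters, in 69.2% of the replication promoters and in 39.7% of all. A match is a run of letters, not a measured binding site.

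Between 23747014 and 27159228 reads were counted per WT library (median 25476732.5) and between 26542930 and 31393393 per KO library (median 29399085). Sdhaf4 was lower in every KO heart, at 25.2 ± 5.80 CPM (read counts scaled to library size with TMM factors; mean ± SD, n = 6) in WT and 2.40 ± 0.170 in KO. Cardiomyocyte markers were abundant in both groups, with 9 of 10 listed genes measured and summed levels of 51030 to 55830 CPM in WT and 41580 to 58110 in KO. Of these 9, 1 rose (Tnnc1) and 5 fell, of which Tnni3, Pln and Myl3 had the smallest p, with log2 fold changes of -0.89, -0.79 and -0.30. Fibroblast markers summed to 1298 to 1473 CPM in WT and to 2137 to 3389 in KO, where 7 of 8 rose, among them Mfap5 (2.59), Pdgfra (0.87) and Dcn (0.63), and Dpt fell. Endothelial markers summed to 1599 to 1772 and to 1785 to 2182 CPM, with 5 of 8 risen, among them Flt1 (0.90) and Emcn (0.34), and Tek fallen (-0.30). Mural markers summed to 1259 to 1496 and to 1334 to 1788 CPM, with Pdgfrb and Rgs5 risen and Acta2 fallen among 6. Macrophage markers summed to 245.3 to 343.0 and to 254.6 to 399.7 CPM, with Mrc1 and Ccr2 risen and Adgre1 and Csf1r fallen among 9. Lymphocyte, neutrophil and erythroid markers were low, at sums of at most 9.96, 14.6 and 50.1 CPM in any heart, with Cd8a the only call among the 12 of them tested, and Hemgn had no count in any library. Of all rows tested, 25.6% rose and 25.5% fell by the test described below, or 51.1% in all, and the mural and macrophage calls were near that share. Whether these changes are shifts in cell make-up, and their part in the results below, was not tested.

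Of the 41 genes, 14 fell and 1 rose in KO by edgeR's quasi-likelihood test, at a Benjamini-Hochberg p under 0.05 over all rows tested. Of all rows, 25.5% fell and 25.6% rose, or 51.1% in all. The median log2 fold change (KO over WT) was -0.70 over the 41 genes and 0.00 over all rows. With the stricter threshold of the study's methods, an adjusted p under 0.005 and a 2-fold change, 3 of the 41 fell (Gins1, Cdt1 and Cenpf) and none rose, against 4.87% and 5.36% of all rows. In bulk RNA, fewer cells in cycle and less RNA per cell cannot be told apart.

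Medians stood apart for replication and mitosis genes. In both sets the share of genes called was below the 51.1% of all rows. Falls were near the 25.5% of all rows for replication genes and above it for mitosis genes. Of the 16 replication genes, 4 fell (Gins1, Mcm4, Cdt1 and Pcna), 1 rose (Ccne2) and 11 did not pass the test, with 9 negative and 7 positive fold changes and a median of -0.12. Of the 25 mitosis genes, 10 fell, none rose and 15 did not pass, yet all 25 fold changes were negative, with a median of -0.95. The groups of hearts did not overlap for 3 replication genes lower in KO, 1 higher and 2 mitosis genes lower, where 15.2% of all rows were lower and 14.9% higher without overlap, or 30.1% in all. The difference between the gene sets was not tested.

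**Figure D1:**
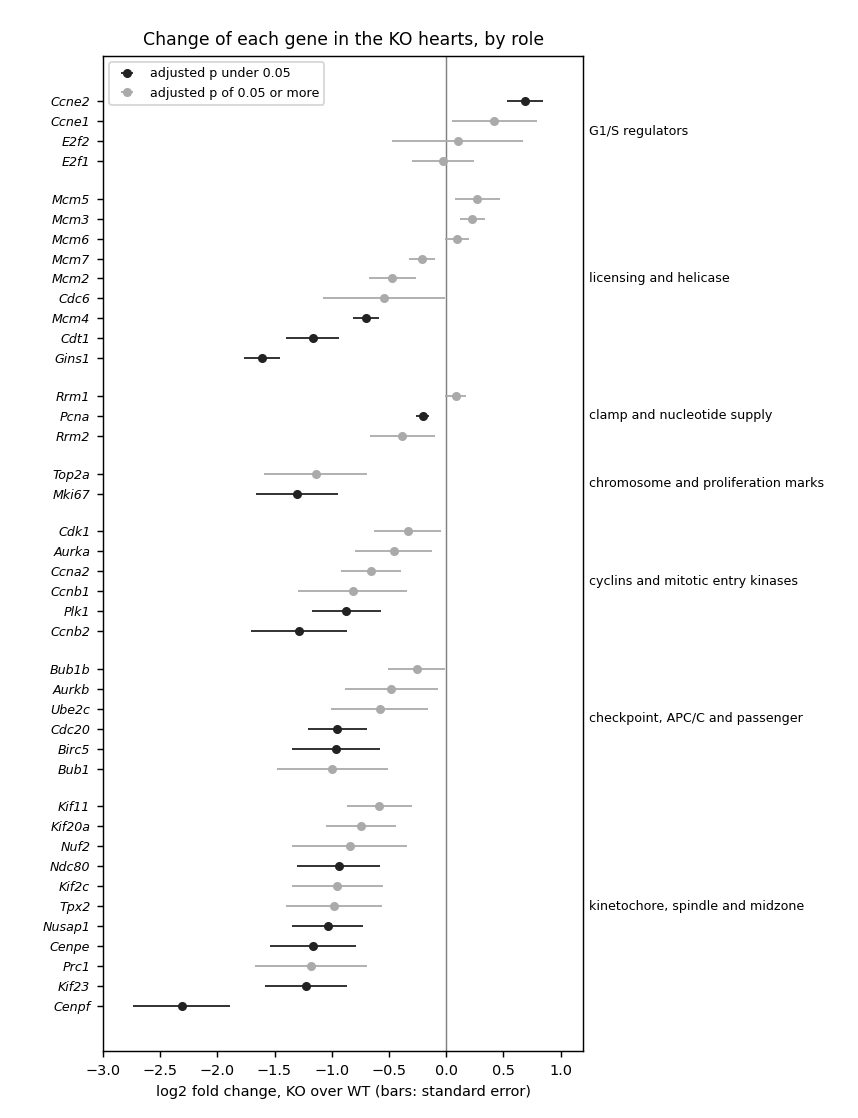
Log2 fold change (KO over WT, 6 hearts each) of the 41 genes on the horizontal axis, grouped by role, with bars of 1 standard error. Black points passed an adjusted p of 0.05. All 25 mitosis genes lie left of 0 with wide bars, while the replication genes lie on both sides and include narrow bars at -1.61 (Gins1) and -0.70 (Mcm4).

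Among the G1/S regulators, Ccne2 was the only gene of the 41 that rose. Ccne2, a cyclin E that partners Cdk2 at S phase entry (chromosome 4, 8252808 to 8266227 on the table's C57BL/6NJ coordinates), stood at a lowest, median and highest of 1.84, 2.44 and 3.03 CPM in WT and of 3.18, 4.04 and 4.57 in KO. Every KO heart was above every WT heart, for a log2 fold change of 0.69 (SE 0.16, adjusted p = 0.00138 by edgeR). The row overlaps that of Ints8, and the strand setting of the counting was not stated. Ccne1, the other cyclin E, ranged from 0.315 to 1.17 CPM in WT (median 0.813) and from 0.576 to 1.68 in KO (median 0.885), with overlapping groups (0.42, SE 0.37, adjusted p = 0.364). E2f1 and E2f2, activating E2F factors, had fold changes of -0.03 (SE 0.27) and 0.10 (SE 0.57). E2f1 ran from 0.808 to 2.14 CPM in WT (median 1.68) and from 0.828 to 2.36 in KO (median 1.64). E2f2 was down to 1 count in a WT heart and spread over 0.0404 to 1.30 CPM in WT (median 0.663) and, around a median of 0.641, over 0.108 to 1.68 in KO. The spread between hearts in E2f2 was larger than the difference between the groups.

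Of the 9 licensing and helicase genes, 3 fell (Gins1, Mcm4 and Cdt1) and 6 did not pass, where 25.5% of all rows fell and 51.1% were called. Gins1, the PSF1 subunit of the GINS complex (chromosome 2, 159896456 to 159923985), stood at 3.66, 4.74 and 6.47 CPM in WT (lowest, median, highest) and at 1.48, 1.54 and 1.80 in KO. The KO hearts lay close together and all below the lowest WT heart, for a log2 fold change of -1.61 (SE 0.15, adjusted p = 2.03e-07 by edgeR). An exact two-sided permutation test over the 12 hearts gave p = 0.00216, the smallest that 924 splits allow. Of the other GINS genes, read from a wider list, Gins4 fell slightly (-0.19, adjusted p = 0.0192) and Gins2 (0.39) and Gins3 (0.11) did not pass.

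Cdt1, which brings the Mcm ring to origins (chromosome 8, 130332486 to 130338834), stood at 1.68, 2.45 and 3.18 CPM in WT and at 0.674, 1.10 and 1.51 in KO. The groups did not overlap, and the log2 fold change was -1.17 (SE 0.23, adjusted p = 0.000471), from 44 to 88 counts in WT and 18 to 42 in KO. Mcm4, a subunit of the hexameric ring (chromosome 16, 12856354 to 12873643), stood at 11.0, 12.1 and 14.0 CPM in WT and at 6.29, 7.37 and 9.16 in KO. It too separated the groups (-0.70, SE 0.11, adjusted p = 5.80e-05). Exact permutation p was 0.00216 for both.

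The other 5 Mcm subunits did not pass the test, though the ring holds all 6 together. Mcm2 stood at 5.20, 5.73 and 8.74 CPM in WT and at 2.41, 4.23 and 6.32 in KO, with overlap (-0.47, SE 0.21, adjusted p = 0.0666). Mcm7 was at -0.21 (SE 0.11) and overlaps the rows of Ap4m1 and Cops6. Mcm3, Mcm5 and Mcm6 had positive fold changes of 0.23 (SE 0.11), 0.27 (SE 0.20) and 0.09 (SE 0.10). Whether Mcm4 differs from the other subunits was not tested. Cdc6, the partner of Cdt1 in loading, ranged from 2 to 35 counts and its fold change of -0.54 had an SE of 0.53.

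Pcna, the sliding clamp (chromosome 2, 139946290 to 139953122), had the highest level of the 41 genes. It stood at 35.9, 39.9 and 44.7 CPM in WT and at 33.1, 35.1 and 36.9 in KO, a small fall with ranges that overlapped at the edge (-0.21, SE 0.06, adjusted p = 0.00692 by edgeR). GENCODE names processed copies of Pcna, so its counts may be shared. Rrm1 and Rrm2, the subunits of the reductase that makes deoxynucleotides, did not pass. Rrm1 ran from 16.9 to 20.6 CPM in WT (median 19.0) and from 17.2 to 25.2 in KO (median 19.4), for 0.08 (SE 0.09, adjusted p = 0.463). Rrm2 ran from 4.48 to 7.19 CPM in WT (median 6.10) and from 2.16 to 7.83 in KO (median 3.88), wider in KO than in WT (-0.38, SE 0.28, adjusted p = 0.280).

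On the authors' FPKM, which divides by gene length and so lets genes be compared, Pcna was highest in WT (44.7 ± 3.25), followed by Mcm7 (15.1 ± 0.613), Gins1 (7.23 ± 1.29), Top2a (5.73 ± 2.62) and Cdc20 (5.45 ± 2.50; SD, n = 6). Top2a and Cdc20 did not differ beyond their spread. Cdc6 (0.178 ± 0.137) and E2f2 (0.277 ± 0.175) were lowest. The length behind FPKM was shorter than the annotated length for some rows, and on the annotated length the WT order was Pcna, Mcm7, Rrm1 and Gins1, at 26.5, 6.26, 4.75 and 4.46 CPM per kilobase, with Cdc6 and E2f2 again lowest.

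**Figure D2:**
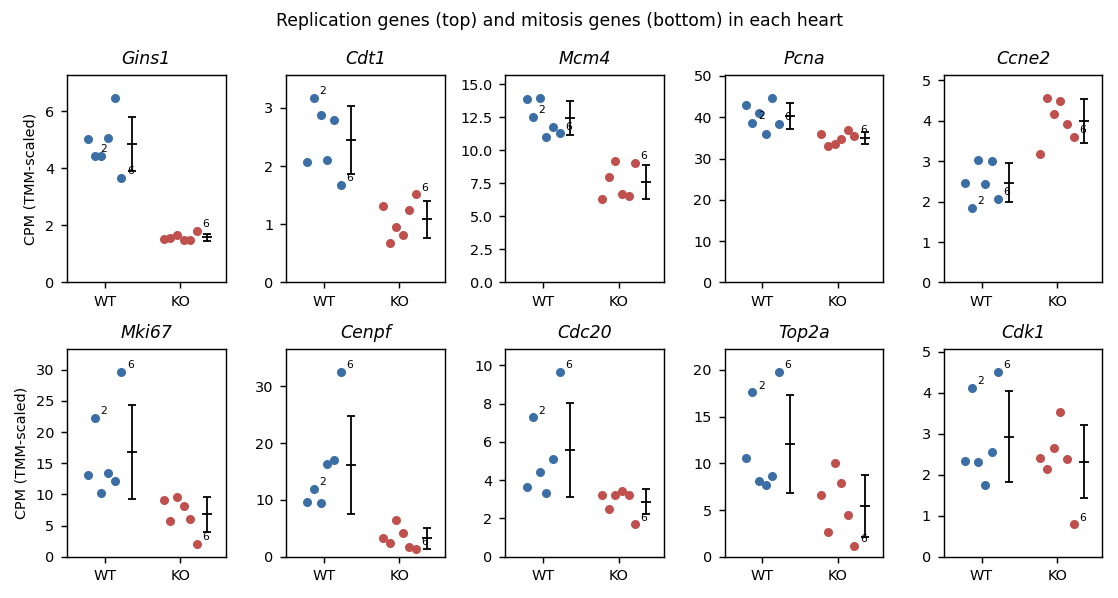
CPM (TMM-scaled) of 5 replication genes and 5 mitosis genes in each of 6 WT (blue) and 6 KO (red) hearts, with mean and SD beside them and replicates 2 and 6 of WT and 6 of KO numbered. Gins1, Cdt1, Mcm4 and Ccne2 separate the groups, while in the mitosis genes WT replicate 6 is the highest heart and KO replicate 6 the lowest.

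Both chromosome and proliferation marks had lower means in KO and a wide spread between hearts, and Mki67 passed the test. Mki67, the nuclear proliferation marker (chromosome 7, 145865498 to 145892056), stood at 10.2, 13.3 and 29.7 CPM in WT and at 2.12, 7.08 and 9.66 in KO. The lowest WT heart was just above the highest KO heart (-1.30, SE 0.36, adjusted p = 0.00979 by edgeR). Top2a, the topoisomerase that disentangles sister chromatids, stood at 7.63, 9.65 and 19.8 CPM in WT and at 1.15, 5.50 and 9.99 in KO. Its groups overlapped (-1.14, SE 0.45, adjusted p = 0.0544).

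Among cyclins and entry kinases, Ccnb2 and Plk1 fell and 4 did not pass, where 25.5% of all rows fell and 51.1% were called. Ccnb2, a cyclin B, stood at 1.34, 2.21 and 5.31 CPM in WT and at 0.396, 1.05 and 2.02 in KO (-1.28, SE 0.42, adjusted p = 0.0191). Plk1, a kinase of mitotic entry and the spindle, stood at 0.970, 1.75 and 3.28 in WT and at 0.834, 1.10 and 1.30 in KO (-0.87, SE 0.30, adjusted p = 0.0222). Both overlapped between groups, with the WT hearts the more spread. Exact permutation p was 0.0281 for Ccnb2 and 0.0563 for Plk1, the only called gene where it was over 0.05. Ccna2, which works in S and G2, stood at 5.07, 7.19 and 12.8 CPM in WT and at 3.19, 4.99 and 7.21 in KO (-0.66, SE 0.26, adjusted p = 0.0510), and its row overlaps Exosc9. Ccnb1, the main cyclin B, stood at 0.760, 1.12 and 2.67 in WT and at 0.144, 0.871 and 1.82 in KO (-0.82, SE 0.48, adjusted p = 0.166). Cdk1, the kinase these cyclins activate, had nearly the same median in both groups. It stood at 1.75, 2.44 and 4.50 CPM in WT and at 0.792, 2.39 and 3.54 in KO (-0.34, SE 0.30, adjusted p = 0.363). Aurka, a kinase of the spindle poles, was at -0.46 (SE 0.34). GENCODE names processed copies of Ccnb1 and of Ccnb2.

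Of the 6 checkpoint and anaphase genes, Cdc20 and Birc5 fell and 4 did not pass, where 25.5% of all rows fell and 51.1% were called. Cdc20, the activator of the anaphase-promoting complex (chromosome 4, 124054408 to 124058859), stood at 3.34, 4.77 and 9.66 CPM in WT and at 1.69, 3.23 and 3.43 in KO (-0.95, SE 0.26, adjusted p = 0.00547 by edgeR). The highest KO heart was barely inside the WT range. Birc5, or survivin, of the chromosomal passenger complex, stood at 1.31, 2.14 and 3.28 in WT and at 0.252, 1.27 and 2.27 in KO (-0.96, SE 0.39, adjusted p = 0.0489). Bub1, a spindle checkpoint kinase, stood at 0.647, 1.13 and 2.31 in WT and at 0.072, 0.669 and 1.34 in KO (-0.99, SE 0.48, adjusted p = 0.0990). Its lowest KO heart had 2 counts. Bub1b (-0.26), Aurkb (-0.48) and Ube2c (-0.58) had SEs of 0.25, 0.41 and 0.42.

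Among kinetochore, spindle and midzone genes, 5 of 11 fell, where 25.5% of all rows fell and 51.1% were called. Cenpf, a large protein of the outer kinetochore (chromosome 1, 202832197 to 202881525), stood at 9.51, 14.1 and 32.5 CPM in WT and at 1.37, 2.89 and 6.39 in KO. The groups did not overlap, and the fall was the largest of the 41 (-2.31, SE 0.42, adjusted p = 0.000709 by edgeR, exact permutation p = 0.00216). The row overlaps another without a gene name. Kif23, a kinesin of the central spindle needed for cytokinesis, stood at 3.15, 3.89 and 7.79 in WT and at 0.684, 2.21 and 3.23 in KO (-1.23, SE 0.36, adjusted p = 0.0107). Nusap1, which bundles spindle microtubules, stood at 2.40, 3.55 and 6.41 in WT and at 0.756, 1.87 and 3.24 in KO (-1.04, SE 0.31, adjusted p = 0.0114), and its row overlaps Oip5. In both, the highest KO heart lay within the lower WT hearts.

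Cenpe, a kinetochore kinesin, and Ndc80, which ties kinetochores to microtubules, also fell, by 1.16 (SE 0.38, adjusted p = 0.0186) and by 0.94 (SE 0.36, adjusted p = 0.0399) on the log2 scale. The other 6, Prc1, Tpx2, Kif2c, Nuf2, Kif20a and Kif11, lay between -1.18 and -0.58 with adjusted p of 0.0538 to 0.178. Nuf2 is the direct partner of Ndc80, and its medians were alike, at 1.30 CPM in both groups.

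Hearts of a group differed in their mitosis genes. The median SD of log2 CPM between hearts was 0.674 in WT and 0.754 in KO for mitosis genes, and 0.270 and 0.347 for replication genes. The largest SDs in WT were those of 2 replication genes of low count, E2f2 (1.185) and Cdc6 (1.093), against at most 0.897 in mitosis genes. The part of count level in this contrast was not tested. WT replicate 6 was the highest WT heart for 21 of the 25 mitosis genes and WT replicate 2 for the other 4. The same 2 hearts were the top pair in 24 of 25, the exception being Cenpf. Their summed mitosis levels were 215.3 and 160.1 CPM, against 77.18 to 95.32 in the other 4 WT hearts and 24.67 to 85.33 in KO. At the low end, KO replicate 6 was the lowest of all 12 hearts for 21 of the 25.

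The replication genes shared this order of hearts only in part. In their mean log2 level, WT replicate 2 was the highest WT heart (2.29), while WT replicate 6 (2.07) was below WT replicate 1 (2.24). Of the KO hearts, replicates 3 and 4 had the highest mean and replicate 6 the lowest in both sets. WT replicates 2 and 6 were the top pair for 0 of the 16 replication genes, and either was highest for 3. Summed replication levels ordered the hearts otherwise. They ran from 130.7 (WT replicate 6) to 138.9 CPM (WT replicate 1) in WT, with WT replicate 2 at 131.4, next to the lowest. In KO they ran from 108.6 (KO replicate 1) to 135.7 (KO replicate 3), with KO replicate 6 at 114.9. The mean log2 level of replication genes minus that of mitosis genes was 0.56 to 0.79 in 4 WT hearts, -0.06 in WT replicate 2, -0.61 in WT replicate 6, and 0.63 to 1.93 in KO. Marker sums of WT replicates 2 and 6 were 1298 and 1397 CPM for fibroblasts, 1730 and 1722 for endothelium, 278.7 and 296.2 for macrophages, 7.04 and 4.20 for lymphocytes, 12.9 and 2.98 for neutrophils and 35.4 and 29.0 for erythroid cells. Their cardiomyocyte sums were 51030 and 54240 CPM and their mural sums 1496 and 1368. WT replicate 2 had the lowest fibroblast and cardiomyocyte sums and the highest lymphocyte, neutrophil and mural sums of the WT hearts, and the part of this in its mitosis levels was not tested.

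**Figure D3:**
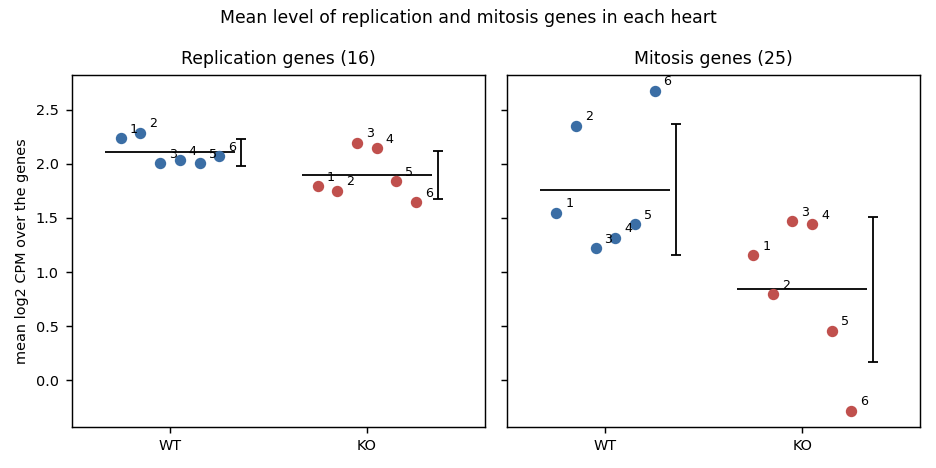
Mean log2 CPM of the 16 replication genes and of the 25 mitosis genes in each WT (blue) and KO (red) heart, numbered by replicate, with the group mean as a line and the SD as a bar. WT replicates 2 and 6 stand above the other WT hearts in the mitosis genes (2.35 and 2.68, others 1.22 to 1.55). In the replication genes WT replicate 2 is highest by little (2.29, next 2.24 in WT replicate 1), and WT replicate 6 lies among the others (2.07).

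Without WT replicates 2 and 6, a choice made after their mitosis levels were seen and one that lowers the WT level by design, 2 of the 10 mitosis calls were kept. These were Cenpf (-2.02, adjusted p = 0.00152 by edgeR) and Mki67 (-0.85, adjusted p = 0.0465), and the median of the 25 was -0.46 with 20 of 25 negative. Cdc20 was at -0.52 (adjusted p = 0.0509), Ccnb2 at -0.58, Cenpe at -0.57 and Cdk1 at 0.05. All 5 replication calls were kept, with Gins1 at -1.73, Cdt1 at -1.18, Mcm4 at -0.73, Pcna at -0.24 and Ccne2 at 0.54. With KO replicate 6 also left out, 2 mitosis genes and the same 5 replication genes were called, and the mitosis median was -0.36 with 17 of 25 negative. With each heart left out in turn, 7 of the 10 mitosis calls and all 5 replication calls held in all 12 fits. Plk1 was lost without WT replicate 2 or 6, while Birc5 held in 3 of 12 fits and Ndc80 in 4.

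**Figure D4:**
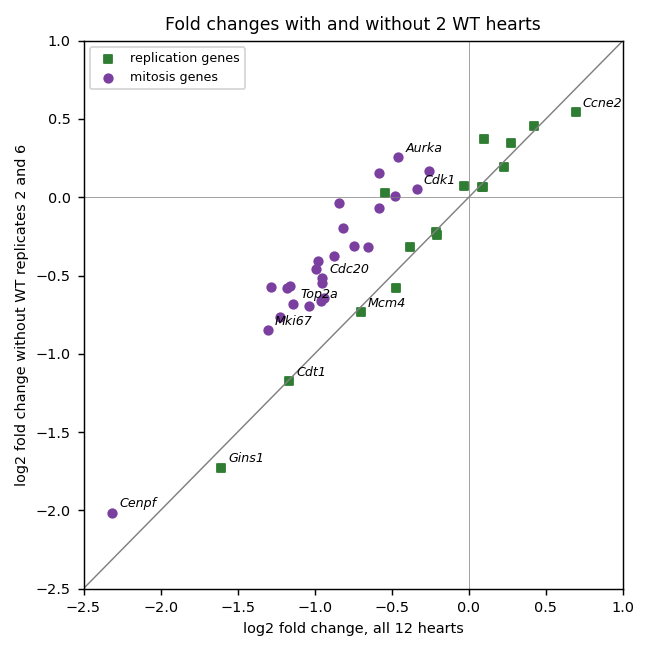
Log2 fold change (KO over WT) of the 41 genes with all 12 hearts on the horizontal axis and without WT replicates 2 and 6 on the vertical axis, with the line of equality. The mitosis genes (circles) lie above the line, nearer to 0 or past it, while the called replication genes (squares) lie close to it. The 2 hearts were chosen after their high mitosis levels were seen, so this contrast follows in part from the choice.

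Other genes of both processes were read from wider lists. Of 48 other replication genes, 46 had a row and 42 were tested, of which 16 fell and 1 rose (Slbp, 0.26, adjusted p = 0.0424), with a median of -0.20, where 25.5% of all rows fell and 25.6% rose. The smallest p belonged to Rfc1, the large subunit of the clamp loader, Pold2, a subunit of polymerase delta, and Rpa1, the main single-strand binding subunit. Rfc1 was at 57.7 ± 3.75 CPM in WT and 37.8 ± 2.39 in KO (-0.61, adjusted p = 1.48e-07), Pold2 at 23.0 ± 1.41 and 14.3 ± 0.980 (-0.69, 2.41e-07), and Rpa1 at 60.2 ± 3.70 and 41.1 ± 4.01 (-0.55, 2.12e-06; SD, n = 6). In all 3, each KO heart was below each WT heart. These subunits also serve DNA repair. Without WT replicates 2 and 6, 14 fell and none rose.

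Of 61 other mitosis genes, 59 had a row and 54 were tested, of which 16 fell and 2 rose, with a median of -0.61. Of all rows 25.5% fell and 51.1% were called in either direction, so falls were near the background and calls below it. Fold changes of the 54 were negative in 45 and positive in 9, against 8540 and 8615 of all rows. Without WT replicates 2 and 6, 5 of 55 tested fell and 5 rose and the median was -0.14, where 46.6% of all rows were called. These 2 hearts also had the highest WT sums of these genes, at 402.9 and 451 CPM, with the others at 317.4 to 346.8. The smaller median thus follows in part from the choice of hearts. The 3 smallest p belonged to Sgo2a, Cenpa and Pttg1. Sgo2a, which shields centromeric cohesin, stood at 22.2, 26.5 and 28.9 CPM in WT and at 4.90, 6.39 and 9.30 in KO (-1.96, adjusted p = 2.19e-09 by edgeR), and its row overlaps Kctd18. Cenpa, the histone of centromeres, went the other way, at 38.7, 43.4 and 46.1 CPM in WT and 69.0, 74.5 and 82.7 in KO (0.80, adjusted p = 8.35e-09). Pttg1, or securin, stood at 71.5, 80.2 and 86.9 in WT and at 47.1, 50.7 and 56.9 in KO (-0.62, adjusted p = 3.98e-07). The other gene that rose was Smc4, a condensin subunit (0.29, adjusted p = 0.00494). Without WT replicates 2 and 6, Sgo2a was at -1.94, Cenpa at 0.82 and Pttg1 at -0.69, all called.

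Of 20 E2F, pocket protein and DREAM regulators, 19 were tested, of which 3 fell and 2 rose, with a median of -0.18, a smaller share of calls than the 51.1% of all rows. Rbl2, the pocket protein p130 that anchors DREAM in resting cells, stood at 106.5, 120.0 and 131.4 CPM in WT and at 54.6, 60.1 and 73.4 in KO (-0.95, adjusted p = 1.97e-08 by edgeR), and its row overlaps Aktip. Tfdp2, a partner of E2F proteins, stood at 103.0, 107.9 and 111.2 in WT and at 57.3, 71.7 and 92.2 in KO (-0.53, adjusted p = 0.000439). Cdk2, the partner of cyclin E, stood at 19.5, 21.4 and 24.5 in WT and at 14.5, 17.8 and 18.7 in KO (-0.32, adjusted p = 0.00186). In these 3 genes every KO heart was below every WT heart. Tfdp1 (0.40) and E2f6 (0.14), a repressor E2F, rose. E2f4, the E2F of DREAM, was at 22.5 ± 1.10 CPM in WT and 22.7 ± 0.715 in KO.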

How the data were processed

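RNA of the ventricular wall of 6 WT and 6 KO hearts was sequenced after poly-A selection. The authors mapped the reads (HISAT2 2.0.5 and mm10 per the submitters' processing notes) and deposited raw read counts per gene, counted with HTSeq. The authors also deposited FPKM per library. Their fold changes, p-values and group means were not used. The identifiers are those of the C57BL/6NJ assembly, and the strand setting is not given in the sources used here.

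Groups came from the sample titles. The 42 genes and all lists were chosen with earlier results of these data known. In R 4.3.3, edgeR 4.0.16 tested the counts after filterByExpr and TMM scaling by the robust quasi-likelihood method, and p was adjusted (Benjamini-Hochberg) over 17155 rows. The edgeR p-values judge the difference between KO and WT against the spread between hearts of a group. Single genes also had exact permutation tests of log2(CPM + 0.1). The scripts were tested on simulated data. Libraries of a group differed beyond sampling noise, so none were merged. Chi-square per degree of freedom was 14.3 to 20.9 for pairs with WT replicate 6 and 6.99 to 14.4 for other WT pairs. For pairs with KO replicate 3 or 6 it was 22.1 to 48.6, and for other KO pairs 11 to 15.6.

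Genes given by heart were the 3 smallest p in each role group, called genes opposite in sign to their set, and Mki67, Top2a, Cdk1, Ccna2, Ccnb1, Pcna and Mcm2. In the wider lists they were the 3 smallest p, and other genes named there were chosen after their values were seen. Marker genes were named likewise. Alternatives were other scalings, DESeq2 1.42.0, limma-voom (limma 3.58.1), other filters, no unannotated loci, a replicate block, and hearts left out.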

Additional observations from a re-analysis of the deposited data

Results flagged for a closer look

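Over 86 groups of 6 hearts examined (41 genes and both set means, in WT and in KO), 4 had a heart far from the rest of its group, where chance flags about 1 in 20 groups, or 4.3 here. Mcm2 was at 8.74 CPM in WT replicate 4, with the other WT hearts at 5.20 to 6.31. Mcm5 was at 5.59 CPM in KO replicate 3, with the other KO hearts at 2.70 to 3.64. Aurkb was at 3.13 CPM in WT replicate 6, with the others at 0.629 to 1.48. Cenpf was at 32.5 CPM in WT replicate 6, with the others at 9.51 to 17.0.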

How the results depend on the processing

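The 5 replication calls were kept under every alternative run, and the mitosis calls varied most. Of the 10 mitosis falls, 9 were kept with library sizes alone, with limma-voom and with no filter on low counts, and all 10 with DESeq2 size factors, upper-quartile scaling, DESeq2, non-robust dispersions, a minimum of 1 CPM in 6 hearts and unannotated loci left out, with 10 to 15 mitosis genes called in these. With each heart left out in turn, 7 to 14 mitosis genes fell, with medians of -1.08 to -0.72, and 1 to 2 replication genes rose (Mcm3 beside Ccne2 without KO replicate 3 or 5). Replicate numbers did not pair the hearts (same-number correlations of -0.16 to 0.02, and 1 of 6 hearts correlated best with its own number). With a replicate block 2 mitosis genes fell (Cdc20 and Cenpf) and 5 replication genes fell, while the mitosis median was -0.95 and all 25 fold changes were negative. Leaving out WT replicates 2 and 6, and these with KO replicate 6, was chosen after seeing the data, and 2 mitosis genes fell in each. Fold changes that turned sign had not passed the test with all 12 hearts. With single hearts left out, E2f1 ranged from -0.18 to 0.093 and E2f2 from -0.29 to 0.36. Without WT replicates 2 and 6, E2f1 was at 0.069, Cdc6 at 0.026, Cdk1 at 0.051, Aurka at 0.25, Bub1b at 0.17, Ube2c at 0.15 and Aurkb at 0.0082. With KO replicate 6 also left out, E2f1 was at 0.20, Ccnb1 at 0.024, Cdk1 at 0.23, Aurka at 0.30, Bub1b at 0.30, Ube2c at 0.31, Aurkb at 0.16, Nuf2 at 0.15 and Kif11 at 0.059. E2f2, Cdc6 and Bub1 fell to 1 or 2 counts in single hearts, where counting error is large.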
